A study of Mus musculus with 4 samples.

Results

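The genes described here encode mitochondrial ribosomal proteins, and were taken as every gene whose single symbol in the probe annotation begins with Mrpl or Mrps followed by a number. This gave 66 of the 11138 genes named on the array, 43 with Mrpl symbols and 23 with Mrps symbols. All 66 had values, through 148 spots of 74 oligonucleotides, and the Entrez identifiers of all 66 were found in the RefSeq gene table under the same symbol. Mouse SVEC cells, an established endothelial line, had been cultured with lipopolysaccharide (LPS), from the outer membrane of Gram-negative bacteria, or without it for 4 h or 24 h. Amplified RNA of treated and control cells was labelled with the dyes Cy5 and Cy3 and hybridised together on 4 arrays. At each time 1 array carried LPS RNA in Cy5 and 1 carried it in Cy3, which the labels call a dye reversal. A dose of 50 ng/ml is given for 3 arrays and none for the other. No label gives a genotype, a passage or separate cultures, so each time was counted as 1 replicate, a single pair of RNAs on 2 arrays of opposite dye.

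Mitochondria keep a small genome whose messages are read by ribosomes of their own, and the proteins made there are core subunits of the respiratory chain and of ATP synthase. The RNA of these mitoribosomes comes from the mitochondrial genome, while all of their proteins are encoded in the nucleus, made in the cytosol and imported. Symbols with an l were given to proteins of the large subunit, which joins amino acids, and those with an s to proteins of the small subunit, which reads the message. Structures later moved some names: the products of Mrps30 and Mrps18a lie in the large subunit, and the product of Mrps36 is now known as a subunit of the 2-oxoglutarate dehydrogenase complex. By position in the particle, the 66 genes were counted as 45 of the large subunit, 20 of the small subunit and Mrps36.

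All values below are log2 ratios of LPS over control, with the sign of the reversed arrays turned, relative to the median spot of each array. No source states which dye is the numerator, so the direction is a likely one, taken from the labels, where channel 2 of the unreversed arrays holds LPS RNA in Cy5. All signs would flip if the ratios were the other way up. The deposited columns of a pair correlated at r = -0.23 over all spots at 4 h, so they were read as dye over dye. At 24 h they correlated at -0.042, which is near 0, so the reading there rests on the labels and on the 4 h pair. The SD after a mean is the spread between the 2 arrays of a time, which is technical. A gene was counted as higher or lower when its mean was at least 1 in size (2-fold) and both arrays passed 1.5-fold in that direction. No test within a time can be had with 1 RNA pair, and the number of arrays limits the precision. Ratios give no level, so the identity of the cells could not be read from their markers. Of 14 endothelial markers 0 were higher and 1, or 7.14%, was lower at 4 h. Of 12 mural and fibroblast markers 5 were higher and 1 was lower at 4 h, or 41.7% and 8.33%. Of 10 leukocyte markers 0 were higher or lower at 4 h, and of 10 epithelial markers 1, or 10%, was lower. At 24 h, 1 leukocyte and 1 mural or fibroblast marker were higher, or 10% and 8.33%. The shares over all named genes were 8.74% higher and 5.77% lower at 4 h, and 1.68% and 0.799% at 24 h. The part of these cell types in the values below was not tested.

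After 4 h with LPS the mitochondrial ribosomal protein genes lay around the middle of the array, with a few genes of the large subunit far from it. Of the 66 genes, 6 were at least 2-fold higher, or 9.09%, where 8.74% of all named genes were. The lower side held 1 gene, or 1.52%, where 5.77% of all named genes were. The share of genes higher is thus near the background. The median over the 66 genes was 0.15, with a middle range from -0.16 to 0.65, while the median over all named genes was close to 0 and its middle range ran from -0.34 to 0.42. The 7 genes past the rule were Mrpl54, Mrpl45, Mrpl9, Mrps30, Mrpl33 and Mrpl42 on the higher side and Mrpl34 on the lower side, all of them large subunit genes by position. Centred on a list of abundant transcripts in place of the median spot, which moved the median of all named genes to -1.71, 1 of the 66 genes was higher and 40 were lower, or 1.52% and 60.6%, where 1.29% and 75.6% of all named genes were. The directions given here are thus relative to the median spot. Read from the array with LPS in Cy3 alone, 14 genes passed 2-fold upward and 4 downward, or 21.2% and 6.06%, where 12.4% and 9.04% of all named genes did. From the array with LPS in Cy5 alone they were 11 and 5, or 16.7% and 7.58%, where 13.3% and 8.94% of all named genes passed.

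**Figure D1:**
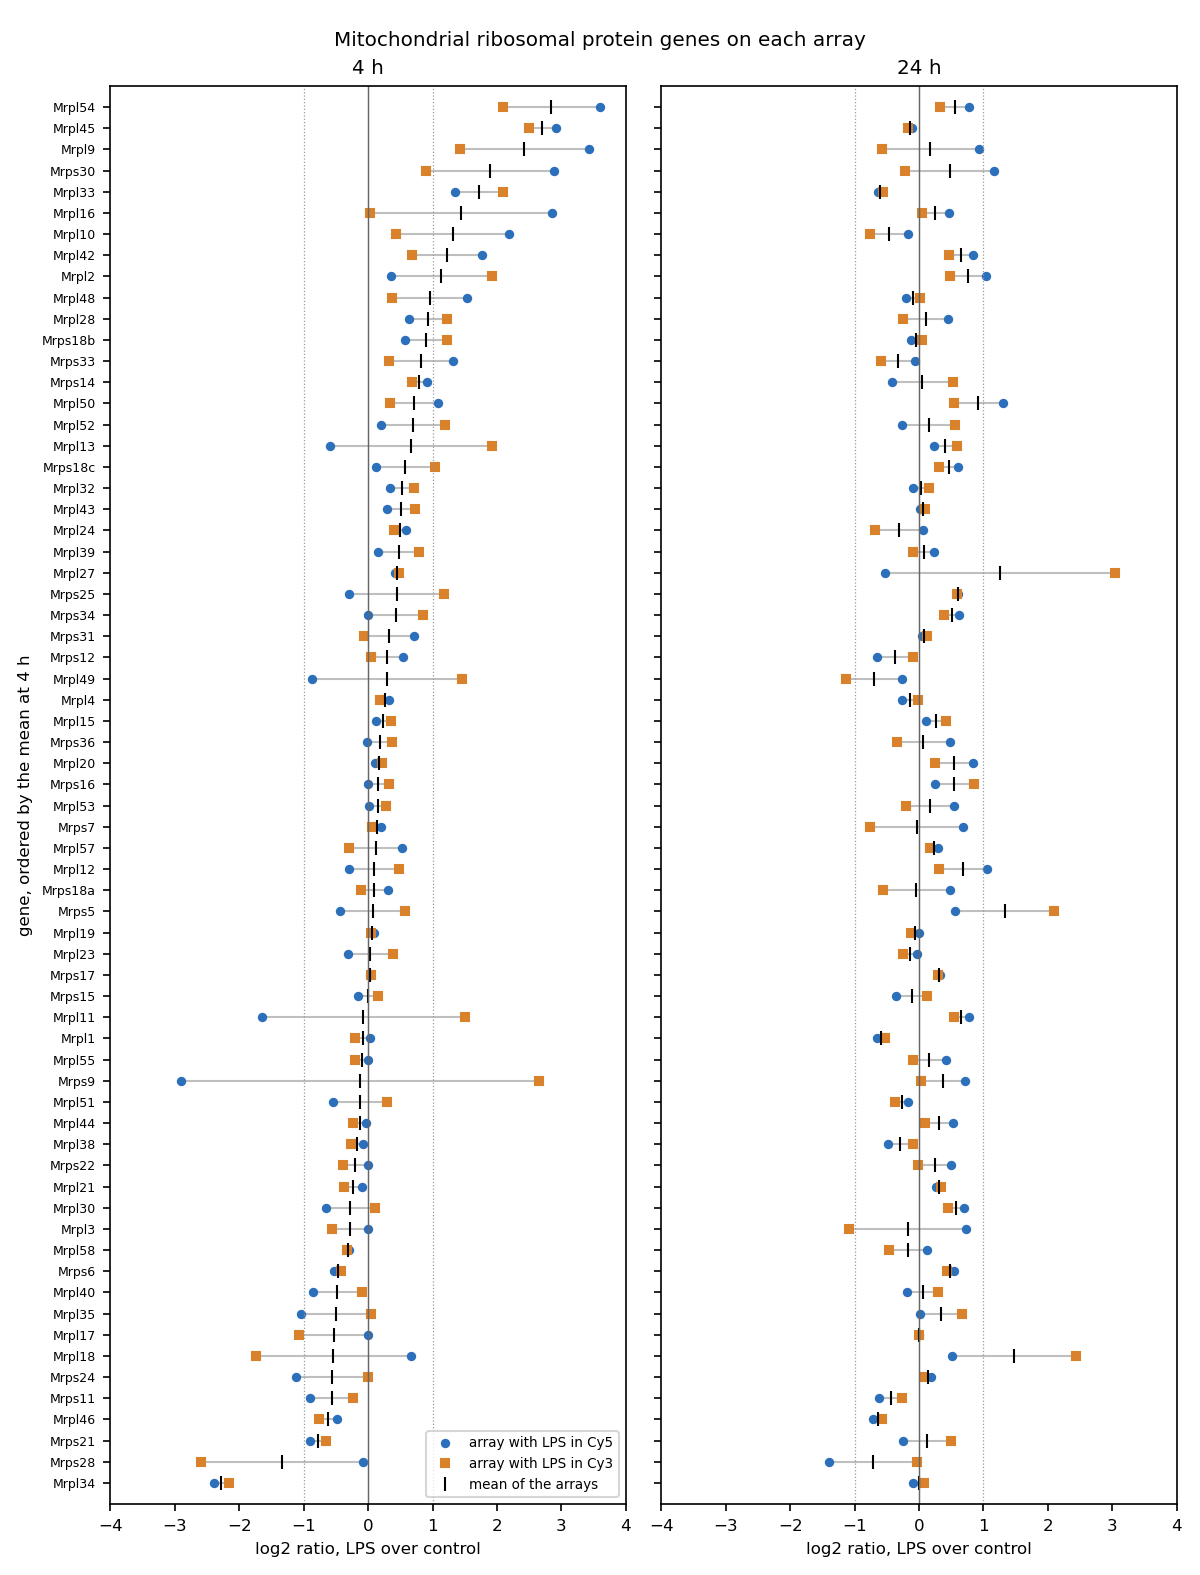
Log2 ratio of LPS over control (x axis) for each of the 66 genes (rows, ordered by the mean at 4 h) at 4 h and at 24 h; circles and squares are the arrays with LPS in Cy5 and in Cy3, ticks their mean, dotted lines a 2-fold difference. At 4 h the means run from -2.28 to 2.84, and at 24 h from -0.71 to 1.47.

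Mrpl54, a component of the large subunit without a bacterial counterpart, had the highest mean. Its log2 ratios at 4 h were 3.60 with LPS in Cy5 and 2.09 with LPS in Cy3, the order kept below, a mean of 2.84 ± 1.07 (SD, 2 arrays) or 7.18-fold. Mrpl45, which lies at the exit of the tunnel for the nascent chain and ties the ribosome to the inner membrane, gave 2.92 and 2.49, a mean of 2.71 ± 0.30 or 6.52-fold. These arrays lay closer together than those of any of the other genes past 2-fold on the higher side. Mrpl9, of a family shared with bacteria, gave 3.43 and 1.42, a mean of 2.43 ± 1.42. Mrps30 gave 2.88 and 0.90, a mean of 1.89 ± 1.40.

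Lower in the order, Mrpl33, a short protein of a family shared with bacteria, gave 1.35 and 2.09 at 4 h, a mean of 1.72 ± 0.53. Mrpl42, a mitochondrion-specific component, gave 1.76 and 0.68, a mean of 1.22 ± 0.76. On the other side stood Mrpl34, the counterpart of a very short and basic bacterial protein, with -2.40 and -2.16, a mean of -2.28 ± 0.17 or 0.206 of the control. Both of its arrays lay below -2, with the smallest spread of the 7 genes.

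Each oligonucleotide was spotted 2 times on the array, so the genes past the rule can be read spot by spot. All spots on both arrays were at least 1.5-fold the same way for 4 of the 7 genes, Mrpl34, Mrpl45, Mrpl54 and Mrps30, and for 70.2% of all named genes past the rule at 4 h. The 4 values of Mrpl45 were 2.98, 2.85, 2.35 and 2.64. Those of Mrpl34 were -2.77, -2.03, -1.97 and -2.35. The remaining 3 genes did not hold together in this way. For Mrpl9 the spots on the array with LPS in Cy3 were -0.81 and 3.65, of opposite sign. For Mrpl33 the spots on the array with LPS in Cy5 were 2.69 and 0. For Mrpl42 the spots on the array with LPS in Cy3 were 1.54 and -0.18. Each of these 7 genes rests on 1 oligonucleotide.

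The promoters of 6 of the 7 genes past the rule are shown, all but that of Mrpl54, because nuclear genes for mitochondrial proteins are known for sites of the factors NRF1 and GABPA, the latter of the ETS family. Windows of 300 bases, 250 before and 50 after the annotated start, were taken from RefSeq on GRCm38.p6, which held 64 windows for 58 of the 66 genes. Capitals mark a match, on either strand, to the ETS family letters CCGGAAG, the longer consensus of NRF1 or YY1, or the letters bound by the general promoter factor SP1, which are GGGCGG. The TATA box was also looked for in every window, by the letters TATAAA. Mrps11, shown last, was chosen after its values were seen.
Mrpl45 (chr11:97315466-97315765, plus strand): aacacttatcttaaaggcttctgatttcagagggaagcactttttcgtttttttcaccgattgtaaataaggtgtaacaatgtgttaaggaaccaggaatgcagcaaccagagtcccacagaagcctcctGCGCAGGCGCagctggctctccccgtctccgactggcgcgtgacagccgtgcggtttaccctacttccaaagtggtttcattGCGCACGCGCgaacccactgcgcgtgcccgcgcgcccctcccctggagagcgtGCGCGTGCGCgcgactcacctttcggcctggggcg
Mrpl9 (chr3:94443086-94443385, plus strand): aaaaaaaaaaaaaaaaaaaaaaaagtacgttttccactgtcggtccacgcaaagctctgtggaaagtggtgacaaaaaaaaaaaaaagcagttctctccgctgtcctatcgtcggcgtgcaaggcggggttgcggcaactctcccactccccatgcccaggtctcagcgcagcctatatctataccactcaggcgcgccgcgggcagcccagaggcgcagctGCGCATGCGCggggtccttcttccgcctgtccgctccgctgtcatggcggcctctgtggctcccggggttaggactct
Mrps30 (chr13:118387203-118387502, minus strand): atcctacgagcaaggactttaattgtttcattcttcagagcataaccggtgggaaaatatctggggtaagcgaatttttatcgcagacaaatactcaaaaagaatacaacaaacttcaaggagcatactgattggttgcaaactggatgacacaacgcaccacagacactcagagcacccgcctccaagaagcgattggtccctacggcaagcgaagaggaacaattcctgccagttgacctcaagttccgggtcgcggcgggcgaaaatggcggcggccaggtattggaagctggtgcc
Mrpl33 (chr5:31613701-31614000, plus strand): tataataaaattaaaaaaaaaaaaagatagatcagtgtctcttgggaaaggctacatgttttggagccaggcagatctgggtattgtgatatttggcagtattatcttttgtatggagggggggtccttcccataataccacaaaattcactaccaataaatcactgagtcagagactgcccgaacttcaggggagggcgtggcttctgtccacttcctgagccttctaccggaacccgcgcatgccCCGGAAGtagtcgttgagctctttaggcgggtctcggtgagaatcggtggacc
Mrpl42 (chr10:95501900-95502199, minus strand): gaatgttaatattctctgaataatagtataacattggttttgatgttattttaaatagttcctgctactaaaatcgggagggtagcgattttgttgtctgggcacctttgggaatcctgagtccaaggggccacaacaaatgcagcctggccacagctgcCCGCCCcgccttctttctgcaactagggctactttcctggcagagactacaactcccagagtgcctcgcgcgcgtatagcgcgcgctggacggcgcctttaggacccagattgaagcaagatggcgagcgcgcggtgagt
Mrpl34 (chr8:71464676-71464975, plus strand): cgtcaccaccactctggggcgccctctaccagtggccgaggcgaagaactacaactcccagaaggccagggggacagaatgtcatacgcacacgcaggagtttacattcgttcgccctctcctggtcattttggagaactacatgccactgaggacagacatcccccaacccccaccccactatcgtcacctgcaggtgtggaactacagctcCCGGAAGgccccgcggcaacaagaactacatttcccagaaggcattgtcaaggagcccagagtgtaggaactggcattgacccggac
Mrps11 (chr7:78782881-78783180, plus strand): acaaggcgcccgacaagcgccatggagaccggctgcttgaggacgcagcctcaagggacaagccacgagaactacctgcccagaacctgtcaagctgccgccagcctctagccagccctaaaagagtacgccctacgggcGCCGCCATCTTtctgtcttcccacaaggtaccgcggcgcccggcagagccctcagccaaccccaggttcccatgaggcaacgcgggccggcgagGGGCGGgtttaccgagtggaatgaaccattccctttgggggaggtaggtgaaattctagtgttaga

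The window of Mrpl45 holds the NRF1 letters 3 times and that of Mrpl9 holds them 1 time. Mrpl33 and Mrpl34, which lay on opposite sides of 0 at 4 h, each hold the ETS letters 1 time, across the start in Mrpl33 and ahead of it in Mrpl34. Mrpl42 holds the SP1 letters, and none of these letters were found in the window of Mrps30. Over the 64 windows of mitochondrial ribosomal protein genes, 34.4% held the ETS letters, 17.2% the NRF1 letters, 4.69% the YY1 letters, 56.2% the SP1 letters and 7.81% the TATA letters. The shares over all 32851 windows of the table were 8.86%, 4.60%, 0.633%, 35.7% and 13.6%. In 67 windows of cytosolic ribosomal genes they were 34.3%, 7.46%, 0%, 56.7% and 7.46%. The median GC content was 58.3% in the windows of mitochondrial ribosomal protein genes, 57.7% in those of cytosolic ones and 52.7% over all, and the part of GC content in these shares was not tested. The 22 genes with the ETS letters had a 4 h median of 0.13, and the 36 genes with a window but without those letters one of 0.15. For the NRF1 letters these medians were 0.09 over 11 genes and 0.16 over 47 genes, and 2 of the 11 and 3 of the 47 were higher by the rule. With the SP1 letters the median was 0.07 over 31 genes and without them 0.32 over 27. With the YY1 letters it was -0.50 over 3 genes and without them 0.16 over 55, and with the TATA letters 0.03 over 5 genes and without them 0.15 over 53. These differences were not tested. A match of letters is a description and not a site.

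Other members had a large mean at 4 h but missed the rule because 1 of their arrays lay too near 0. Mrpl16, which sits near the catalytic centre, gave 2.85 and 0.04, a mean of 1.44 ± 1.99. The value on the array with LPS in Cy5 came from spots at 5.70 and 0. Mrpl10, which anchors the stalk that binds translation factors, gave 2.19 and 0.43, a mean of 1.31 ± 1.25. Mrpl2, one of the most conserved proteins of the large subunit, gave 0.36 and 1.92, a mean of 1.14 ± 1.10. Mrps28, of the small subunit, gave -0.08 and -2.59, a mean of -1.33 ± 1.78. Its value of -0.08 came from spots at 3.51 and -3.66. In these 4 genes 1 array lay under 1.5-fold and the other beyond 2-fold.

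In some members the arrays lay on opposite sides of 0 at 4 h. Mrps9, of the small subunit, gave -2.90 and 2.66, the widest spread of all 66. Mrpl11, at the base of the stalk, gave -1.65 and 1.497. The means were -0.12 for Mrps9 and -0.08 for Mrpl11. The SD between the arrays exceeded the size of the mean in 33 of the 66 genes at 4 h and in 33 at 24 h, where it did so for 47.5% and 57.1% of all named genes.

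The small subunit had no gene past the rule at 4 h. Its 20 genes had a median of 0.10, against 0.16 for the 45 genes of the large subunit. Of those 45 genes 6 were higher and 1 lower, or 13.3% and 2.22%, where 8.74% and 5.77% of all named genes were. The highest mean in the small subunit was that of Mrps18b, at 0.90 ± 0.46 with arrays at 0.57 and 1.22. Mrps18b and Mrps18c are paralogs placed at different sites of the small subunit, and a further paralog, Mrps18a, lies in the large subunit. Mrps18c gave 0.58 ± 0.65 and Mrps18a 0.09 ± 0.29 at 4 h. At the low end, Mrps21 gave -0.91 and -0.65, Mrps24 gave -1.11 and 0, and Mrps11 gave -0.90 and -0.23. Mrps12, which lines the decoding centre, gave 0.55 and 0.05. The full range over the small subunit, from -1.33 to 0.90, was narrower than that over the large subunit, from -2.28 to 2.84. The large subunit set holds more genes, 45 against 20. The middle ranges were more alike, from -0.26 to 0.43 for the small and from -0.13 to 0.71 for the large subunit. This difference between subunits was not tested, since genes are not replicates.

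Genes were also sorted into those of families shared with bacteria and mitochondrion-specific ones, by a classification drawn up after the values were known. Mrps18a and Mrps18b were counted as mitochondrion-specific and their paralog Mrps18c as shared, so the sorting does not follow descent throughout. The 40 genes of families shared with bacteria had a 4 h median of 0.07, with 2 higher and 1 lower, or 5% and 2.5%. The 25 mitochondrion-specific genes had a median of 0.43, with 4 higher and 0 lower, or 16% and 0%. Of all named genes 8.74% were higher and 5.77% lower, and the difference between the groups was not tested. At 24 h the medians were 0.15 and 0.07, in the opposite order.

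The mitochondrial and the cytosolic ribosomal genes lay apart at 4 h. Cytosolic ribosomal genes, taken by symbol, had a median of 1.77 over 67 genes, and 38 were higher and 1 lower. These are 56.7% and 1.49%, where 8.74% and 5.77% of all named genes were. The median of the mitochondrial set was 0.15. With LPS in Cy5 the array medians were 0.03 for mitochondrial and 1.74 for cytosolic genes, and with LPS in Cy3 they were 0.31 and 1.70, so both arrays put the sets in the same order. Rpl6 gave 6.14 and 4.39 and Rps3 gave 6.30 and 3.40, above every mitochondrial ribosomal protein gene. The symbol pattern takes in 6 genes that encode no standard subunit, such as the kinase gene Rps6kb2, and without them the cytosolic median was 2.03 over 61 genes. Abundant transcripts outside translation and mitochondria, a list of 29 measured genes, had a median of 1.99 with 16 higher and 1 lower. These are 55.2% and 3.45% of the list. Centred on that list, the 4 h medians were 0.06 for cytosolic and -1.56 for mitochondrial ribosomal genes. The share that transcript abundance has in the gap between the sets was not tested, since the table holds no intensities.

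**Figure D2:**
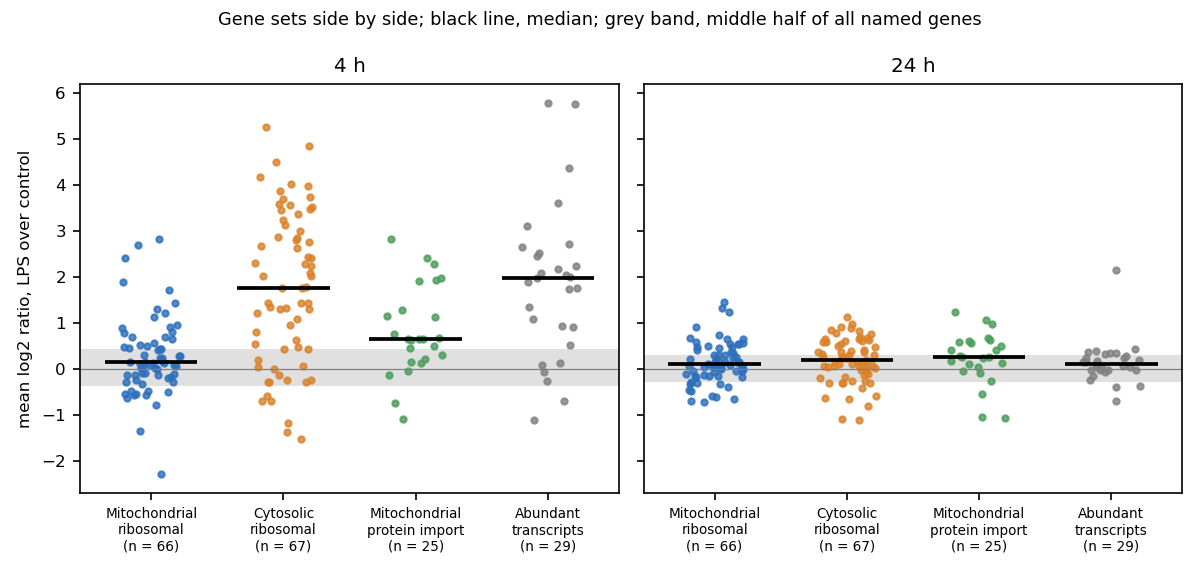
Mean log2 ratio of LPS over control (y axis) for each gene of 4 sets at 4 h and at 24 h; points are genes, black lines medians and the grey band the range between the quartiles of all named genes. At 4 h the median is 0.15 for mitochondrial and 1.77 for cytosolic ribosomal genes, and at 24 h these are 0.11 and 0.20.

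The other genes of mitochondrial gene expression were described from lists. Beside them, 8.74% of all named genes were higher and 5.77% lower at 4 h, and 1.68% and 0.799% at 24 h. Of 4 further mitoribosome proteins listed under other symbols, Oxa1l, which inserts new chains into the inner membrane, was higher at 4 h, with arrays at 1.55 and 1.06. Assembly and RNA modification factors had 0 of 13 genes higher or lower, with a median of 0.05. Translation factors had 0 of 6 higher and 1 lower, the ribosome recycling factor gene Mrrf, at -3.83 and -1.85. Mitochondrial aminoacyl-tRNA synthetases, which charge the tRNAs, had 0 of 7 higher and 1 lower, Hars2, at -1.23 and -2.83. Genome maintenance and transcription had 0 of 9 higher or lower, with the packaging factor Tfam at 2.08 and 0.32. Regulators of mitochondrial biogenesis had 0 of 8 higher or lower, with a median of -0.11. Mitochondrial protein import had 9 of 25 genes higher and 1 lower, or 36% and 4%, with a median of 0.66. Its receptor gene Tomm20 gave 1.19 and 4.46, and Tomm6, a small subunit of the import pore, gave 2.47 and 2.39. At 24 h the import list had 1 gene higher, the chaperonin gene Hspd1, at 1.24 and 1.26, and 1 lower, Tomm20, at -1.06 and -0.99. Among the biogenesis regulators 1 of 8 was higher at 24 h: Ppargc1a, a transcriptional coactivator, at 0.84 and 4.00.

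After 24 h no mitochondrial ribosomal protein gene was past the rule in either direction, where 1.68% of all named genes were higher and 0.799% lower. The median was 0.11, with a middle range from -0.13 to 0.45, and 63 of the 66 means were under 1 in size. Over all named genes the median was 0.02 and 94.0% of means were under 1 in size. Cytosolic ribosomal genes had a median of 0.20 at this time, with 1 of 67 higher and 0 lower. The medians of the mitochondrial set were 0.21 with LPS in Cy5 and 0.06 with LPS in Cy3. With the latter array alone, 3 genes passed 2-fold upward and 2 downward, or 4.55% and 3.03%, where 6.92% and 2.79% of all named genes did. With the former alone they were 4 and 1, or 6.06% and 1.52%, where 4.52% and 7.34% of all named genes passed.

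The 3 genes with a mean above 1 at 24 h each rested mainly on the array with LPS in Cy3. Mrpl18, a central protuberance protein, gave 0.51 and 2.44, a mean of 1.47 ± 1.37. The spots behind 2.44 were at 5.01 and -0.14. Mrps5, a small subunit protein near the message entry, gave 0.57 and 2.09, a mean of 1.33 ± 1.08, with spots at 3.86 and 0.32 behind 2.09. Mrpl27, whose bacterial relative reaches the catalytic centre, gave -0.53 and 3.04, a mean of 1.26 ± 2.52, with spots at 1.08 and 5.001 behind 3.04. Each of these missed the demand on 1 array.

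Smaller means with both arrays of 24 h on the same side of 0 were found above and below it. Mrpl50 gave 1.31 and 0.54, Mrpl2 gave 1.03 and 0.48, and Mrpl12, the stalk protein that also binds the mitochondrial RNA polymerase, gave 1.06 and 0.31. Mrpl1 gave -0.65 and -0.53, Mrpl33 gave -0.64 and -0.57, and Mrpl46 gave -0.71 and -0.58. For Mrpl1 the spots on the array with LPS in Cy5 were 0, 0.91, 0.30 and -3.80. With the median of the spots in place of their mean, Mrpl1 lay at -0.096 at 24 h. For Mrpl46 the spots on the array with LPS in Cy3 were 0.62 and -1.79, of opposite sign. Mrpl49 gave -0.26 and -1.14, and Mrps28 gave -1.39 and -0.02, and spots of opposite sign lay behind the values with LPS in Cy3 of these genes too. All of these means were under 2-fold.

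Across the times, the order of the genes at 4 h was not that at 24 h. The means at 4 h and 24 h correlated at r = 0.08 over the 66 genes, which share arrays and are not independent, so this is a description. By a rule that demands a difference of at least 1 between the means, with both arrays of a time beyond both of the other, 7 genes were lower at 24 h than at 4 h and 1 was higher. These are 10.6% and 1.52% of the 66, where 9.98% and 8.20% of all named genes were. Centred on abundant transcripts, 47 of the 66 genes were higher at 24 h and 1 was lower, or 71.2% and 1.52%, where 72.6% and 1.27% of all named genes were. Without the 4 h array with LPS in Cy5 the counts were 11 lower and 4 higher. These are 16.7% and 6.06% of the 66, where 12.9% and 10.9% of all named genes were. Without the 4 h array with LPS in Cy3 they were 10 and 9, or 15.2% and 13.6%, against 13.8% and 11.0%. Without the 24 h array with LPS in Cy5 they were 10 and 7, or 15.2% and 10.6%, against 12.6% and 14.1%. Without the 24 h array with LPS in Cy3 they were 8 and 3, or 12.1% and 4.55%, against 14.2% and 8.29%. In the cytosolic set 38 of 67 were lower and 3 higher. The largest differences downward were -2.85 for Mrpl45, -2.32 for Mrpl33 and -2.29 for Mrpl54. Mrpl45 lay at -0.11 and -0.17 at 24 h, and Mrpl54 at 0.77 and 0.33. The largest upward was 2.28 for Mrpl34, which lay at -0.09 and 0.08 at 24 h. Mrpl18 followed with 2.01 and Mrps5 with 1.26, but their arrays at the times overlapped.

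**Figure D3:**
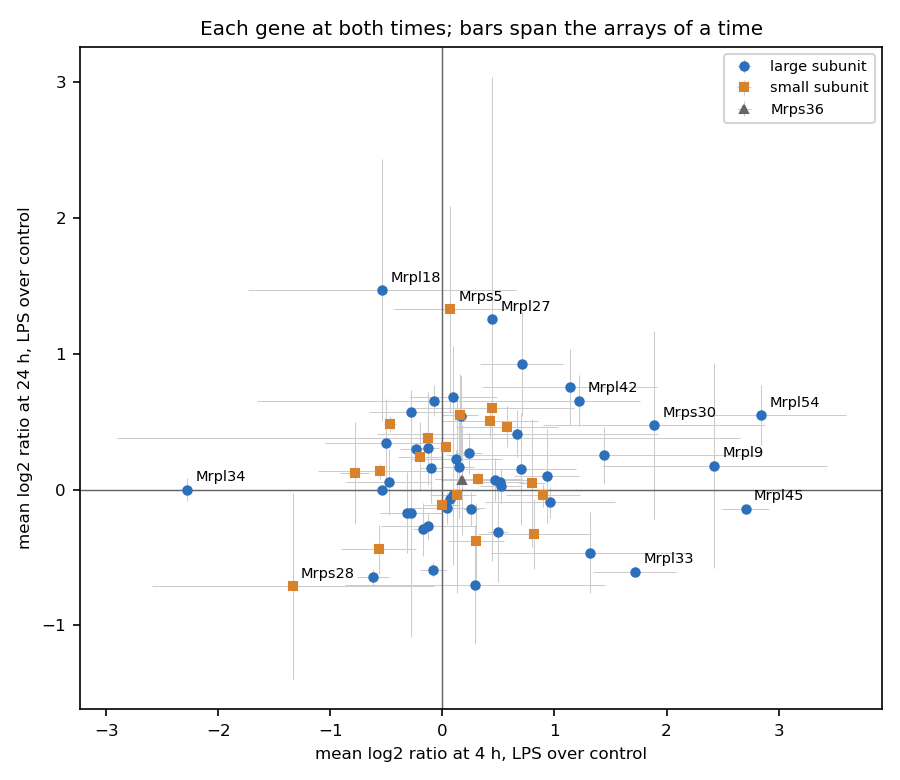
Mean log2 ratio of LPS over control at 24 h (y axis) against that at 4 h (x axis) for each of the 66 genes, by subunit; grey bars span the arrays of a time. The 7 genes past the rule at 4 h lie between -0.60 and 0.65 at 24 h.

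Some members kept a side on all 4 arrays. Above 0 throughout were 10 of the 66 genes, or 15.2%, where 11.8% of all named genes were. Among these Mrpl42, at 0.47 or more on every array, Mrpl2, at 0.36 or more, Mrpl50, at 0.33 or more, and Mrpl54, at 0.33 or more, lay farthest from 0. Below 0 throughout were 4 genes, or 6.06%, where 10.1% of all named genes were: Mrpl38, Mrpl46, Mrps11 and Mrps28. The spots behind these values did not all keep a side. On the 4 h array with LPS in Cy5 those of Mrps28 were 3.51 and -3.66, and those of Mrps11 were 0.14 and -1.94. On the 24 h array with LPS in Cy3 those of Mrpl46 were 0.62 and -1.79, and those of Mrpl38 were -0.89 and 0.69. Of the genes named on the upper side, Mrpl2, Mrpl42 and Mrpl50 also had a spot below 0, and Mrpl54 had none. Mrpl46 lay at -0.48 and -0.76 at 4 h and at -0.71 and -0.58 at 24 h. Mrps11 lay at -0.90 and -0.23 at 4 h and at -0.62 and -0.26 at 24 h. Mrpl46 and Mrps11 are transcribed away from each other on chromosome 7, and their promoter windows share 141 bases, so the window of Mrps11 printed above holds part of that of Mrpl46.

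Both times together allowed 1 test, a limma fit (lmFit and eBayes) of the response shared by the times, with each time as 1 value and 1 residual degree of freedom. At an adjusted p of 0.05 it called 0 of the 66 genes and 0.0% of all named genes, with Benjamini-Hochberg adjustment over 11138 genes. A difference between the times counts as error in this fit, so a response at 1 time alone weighs against a call. Unadjusted p-values under 0.05 were found for 4 of the 66 genes, or 6.06%, and for 4.61% of all genes. These were Mrpl2 (shared log2 ratio 0.95, unadjusted p = 0.0327 in limma), Mrps28 (-1.02, 0.0345), Mrpl42 (0.94, 0.0409) and Mrpl50 (0.81, 0.0438), each with an adjusted p of 0.761.

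Between the arrays of a pair the 66 genes differed widely. Their log2 ratios correlated at r = 0.27 at 4 h and 0.11 at 24 h, where all named genes gave 0.48 and 0.10 and cytosolic ribosomal genes 0.62 and 0.09. At 4 h, 30 of the 66 genes lay above 0 on both arrays, or 45.5%, where 31.2% of all named genes did, and 11 lay below 0 on both, or 16.7%, where 31.6% did. At 24 h these were 27 genes, or 40.9%, against 30.3%, and 15 genes, or 22.7%, against 25.6%. The 2 spots of an oligonucleotide, 74 pairs, had r = 0.49 and 0.28 at 4 h and 0.31 and -0.03 at 24 h, LPS in Cy5 first.

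**Figure D4:**
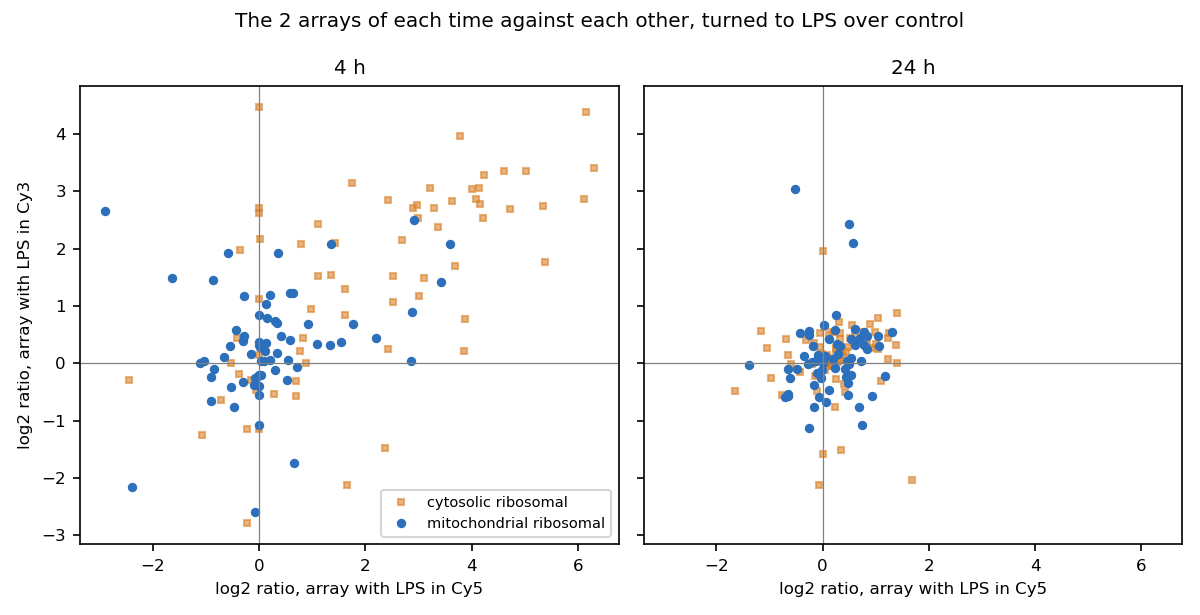
Log2 ratio on the array with LPS in Cy3 (y axis) against that on the array with LPS in Cy5 (x axis) for mitochondrial (circles) and cytosolic (squares) ribosomal genes at each time. At 4 h the cytosolic genes spread far into the upper right and most mitochondrial genes stay near 0, and at 24 h both sets lie near 0.

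The 7 genes with more than 1 oligonucleotide gave a further check. At 4 h the oligonucleotides differed in sign for Mrpl12, Mrpl24, Mrpl39 and Mrpl58, and at 24 h for Mrpl24, Mrpl39 and Mrpl44. The oligonucleotides of Mrpl39 had 4 h means of 1.587 and -0.64. The 3 oligonucleotides of Mrpl24 had 4 h means of 1.49, 0.42 and -0.43, and 24 h means of 0.54, 0.17 and -1.66. Mrpl44, a protein with an RNase III-like fold, had 24 h means of 1.11 and -0.49. Mrpl58, a peptidyl-tRNA hydrolase that frees stalled ribosomes and is built into the large subunit, had 4 h means of -0.87 and 0.23. The oligonucleotides of Mrpl12 lay closer together at 4 h, at -0.12 and 0.31.

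Spots at a ratio of exactly 1 made up 26, 7, 6 and 7 of the 148 member spots on the 4 h arrays with LPS in Cy5 and Cy3 and the 24 h arrays with LPS in Cy5 and Cy3. On the first of these, 6 genes had all of their spots at exactly 0, and their values were kept.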

How the data were processed

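The values were deposited by the authors as the log2 ratio of the dyes for each of 32448 spots on 4 arrays; base 2 was read from the values, which lie on steps of 0.01 in the ratio. Per the labels, LPS and control RNA were amplified and hybridised together, with the dyes exchanged on the other array of each time. The scanner and the steps from image to ratio were not given in the sources used here. No intensities were used, so detection and depth are unknown. Reversed columns were turned in sign, each array was centred on its median spot, and spots with 1 symbol in the platform annotation (24344, with 98 of several symbols and 8006 of none left out) were averaged per gene, keeping spots at exactly 0. A gene was higher or lower at a mean of at least 2-fold with each array at least 1.5-fold. The shared response was fitted with limma 3.58.1 in R 4.3.3, with Benjamini-Hochberg adjustment over all named genes. Rule and fit were run on simulated data with set effects and even noise. That checks the code and not their accuracy on these arrays. Other steps used Python 3.11.15, numpy 2.4.6 and pandas 2.3.3.

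The members, the gene lists and the rule for named genes were chosen with earlier results of these data known. Genes were named when they met the rule, had the 6 highest or lowest means at a time, had the 3 largest differences each way between times, or had oligonucleotides of opposite sign; of other lists the 2 largest, and of cytosolic genes the 4 highest, could be named. Any further gene was picked with its values in view. Alternatives covered centring, scaling, spots at 0, thresholds and leaving out an array, and for the limma fit also the 4 arrays taken as independent.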

Additional observations from a re-analysis of the deposited data

Results flagged for a closer look

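In 10 of the 66 genes both arrays of 4 h lay on the opposite side of 0 from both arrays of 24 h. These are 15.2% of the 66, where 13.8% of all named genes did the same, so the count is near the background, and the difference between the times was not tested. The difference of the means, 24 h minus 4 h, was -2.85 for Mrpl45, -2.32 for Mrpl33, -1.78 for Mrpl10 and -1.15 for Mrps33. It was -0.67 for Mrps12, -0.40 for Mrpl4 and -0.13 for Mrpl19. In the opposite direction it was 0.95 for Mrps6, 0.53 for Mrpl21 and 0.43 for Mrpl44. Mrps6, a small subunit protein of a family shared with bacteria, lay at -0.52 and -0.42 at 4 h and at 0.54 and 0.43 at 24 h.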

How the results depend on the processing

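Centring on abundant transcripts moved the median of all named genes to -1.71 at 4 h and -0.09 at 24 h. Under it 1 member was higher and 40 lower at 4 h (all named genes: 1.29% and 75.6%), the median of members was -1.56 at 4 h and 0.0017 at 24 h, 3 members lay above 0 on both 4 h arrays, 47 were higher and 1 lower at 24 h than at 4 h (all named genes: 72.6% and 1.27%), and Mrpl42 turned to -0.49 at 4 h. The gap between the members' median and that of all named genes at 4 h was 0.15 with either centring. It could not change, since this centring shifts all genes of an array by the same amount. Members higher at 24 h numbered 2 (3.03%, all named genes 2.31%) with arrays scaled to the same median absolute deviation, 4 (6.06%, all 3.69%) with quantile normalization, 1 (1.52%, all 3.11%) with a mean of 1.5-fold and 3 (4.55%, all 3.48%) by the mean alone. Members lower at 4 h numbered 2 with a mean of 1.5-fold (3.03%, all 8%) and 2 by the mean alone (3.03%, all 8.09%). Members higher at 24 h than at 4 h numbered 2 with that scaling (3.03%, all 7.69%), 5 with quantile normalization (7.58%, all 8.87%) and 2 of 59 with spots at exactly 0 as not measured (3.39%, all 8.83%). Leaving out each 4 h array in turn gave 11 to 14 members higher and 4 to 5 lower at 4 h. These are 16.7% to 21.2% and 6.06% to 7.58%, where 12.4% to 13.3% and 8.94% to 9.04% of all named genes were. Leaving out each 24 h array gave 3 to 4 higher and 1 to 2 lower at 24 h. These are 4.55% to 6.06% and 1.52% to 3.03%, where 4.52% to 6.92% and 2.79% to 7.34% were. Leaving out each of the 4 arrays gave 3 to 9 higher and 8 to 11 lower at 24 h than at 4 h. These are 4.55% to 13.6% and 12.1% to 16.7%, where 8.29% to 14.1% and 12.6% to 14.2% were. With 1 array left at a time, the rule asks for 2-fold on that array alone. The demand on the other array then falls away, and the mean alone drops the demand on each array. What else lies behind these changes was not tested. The limma fit called 0 members under every alternative run, where it also called 0 of all named genes. Members at an unadjusted p under 0.05 numbered 0 to 7. These are 0% to 10.6% of the members tested, where the shares of all named genes ran from 2.63% to 11.2%. Among the runs were 2 that took the 4 arrays as independent, without and with a dye term, although each time was counted as 1 replicate. No paired analysis was possible because the numbers of the arrays mark the dye orientation, and each time holds 1 RNA pair.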
